A study of Mus musculus with 4 samples.

Results

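The genes described here encode the subunits of the mitochondrial oxidative phosphorylation (OXPHOS) machinery, measured in thymic invariant natural killer T (iNKT) cells. The family was picked with earlier results of these data known, and its members were defined by symbol, not by measured values. They are the nuclear genes whose names begin with Nduf (followed by a, b, c, s or v), Uqcr, Cox4 to Cox8 or Atp5. The genes Sdha to Sdhd and the protein-coding genes of the mitochondrial genome belong to them as well. Assembly factors named Ndufaf were left out. This gave 99 of the 32285 genes in the files, of which 86 are nuclear, spread over 19 chromosomes, and 13 are mitochondrial. The nuclear members comprise 37 of complex I, 4 of complex II, 8 of complex III, 20 of complex IV and 17 of complex V. One of them, Ndufb1-ps, is annotated as a non-coding RNA at a shared promoter.

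Single cells were sorted from the thymus of BALB/c and B6 mice as CD3+ and positive for CD1d loaded with the lipid PBS57, which marks iNKT cells, and were profiled by droplet-based 5' RNA sequencing. There were 4 libraries, 2 per strain, named BALB/c 1 and 2 and B6 1 and 2. No treatment or genetic change other than strain is given, and the labels state neither age nor sex, and do not tie libraries to single mice. All p-values therefore rest on the spread over these libraries, which may be technical. For strains this is the spread between libraries. For cell types compared within libraries it is the spread left once each library's own level is removed.

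Oxidative phosphorylation passes electrons from NADH (complex I) and succinate (complex II) through complex III to oxygen at complex IV, and the proton gradient built on the way drives the ATP synthase, complex V. Complex II is made only from nuclear genes, whereas the other complexes mix nuclear subunits with subunits read from mitochondrial DNA. The mitochondrial genes are transcribed as long polycistronic RNAs by a dedicated polymerase, so the cell uses separate machinery for each genome. In developing T cells, division is known to come with growth of the mitochondrial network.

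The files held 2038 to 9732 barcodes per library and 20406245 to 82904358 UMIs, that is, distinct tagged molecules. After filtering, 1864, 1913, 2328 and 8790 cells remained; here and in all lists below the order is the BALB/c libraries 1 and 2, then the B6 libraries 1 and 2. Median UMIs per cell ranged from 6923 to 11004. The file header of B6 2 names another version of the counting software than the other 3 libraries, so the version and this library cannot be told apart. Pairs of libraries shared 4 to 33 barcodes.

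Cells were clustered without any OXPHOS, mitochondrial or ribosomal gene, and clusters were named from marker lists. The iNKT1-like class held 283, 609, 1357 and 4659 cells, the iNKT2-like class 829, 667, 207 and 1479, and the iNKT17-like class 317, 179, 63 and 155. The early class, called iNKT0-like for the immature cells it resembles, held 88, 120, 83 and 180 cells, and the dividing class 86, 84, 72 and 194. Cells of other classes (B cell, double-positive thymocyte, regulatory T cell and interferon-responding) and of unnamed clusters entered only the sums over all kept cells. Of the 770 cells in the cluster named regulatory T cell, 764 came from B6 2. Its median depth was 0.35 of the library median, and 0 of its list markers were among its 10 top genes. Unnamed cluster 20 held 183 cells, all from B6 2. Both clusters thus entered the strain comparison over all cells. Unnamed cluster 17 (24, 36, 30 and 34 cells) scored 3.94 for dividing markers, above the dividing cluster (2.52). Unnamed cluster 15 (23, 20, 31 and 112 cells) scored 0.875 for them, so the dividing class leaves out some cells with these markers. The genes below are in the lists that gave the names, so their levels describe the classes and do not test the names. Elsewhere means in the other classes compared, without the cells left out above. Tbx21, the factor of iNKT1 cells, stood at 147 to 192 CPM (counts scaled to the library total) in iNKT1-like cells and at most 62.4 elsewhere. Il23r, a subunit of the interleukin 23 receptor and a marker of iNKT17 cells, stood at 173 to 377 CPM in iNKT17-like cells and at most 3.87 elsewhere. The proliferation gene Mki67 stood at 527 to 691 CPM in dividing cells and at most 44.9 elsewhere, and Cd24a, a surface marker of immature thymocytes, at 66.3 to 219 CPM in early cells and at most 3.99 elsewhere. Zbtb16, the factor that directs the iNKT lineage, separated iNKT2-like (361 to 669 CPM) from iNKT1-like cells (63.7 to 139) but overlapped with iNKT17-like (237 to 494), early (204 to 481) and dividing cells (294 to 593). The 10 iNKT2 markers summed to 2516 to 3049 CPM in iNKT2-like cells and at most 2245 elsewhere. The cluster that held nearly all BALB/c iNKT2-like cells scored almost as high for 5 gamma-delta T cell markers (0.936) as for iNKT2 markers (0.989). These 5 summed to 822, 597, 356 and 365 CPM in iNKT2-like cells, 625 to 741 in iNKT17-like and 251 to 300 in iNKT1-like cells, and each was detected in all 3 classes.

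Where members move together, their promoters are of interest, and RefSeq windows (GRCm38.p6) were found for 68 of the 86 nuclear members. In the 250 bases before each start, the letters of the factor NRF1 (GCGCA, any base, then GCGC, on either strand), a known regulator of respiratory chain genes, were present in 14 of 73 member windows (19.2%). Of all 32851 windows, 3.74% held them. The ETS letters (CCGGAAG, either strand), read by the GABP factor among others, were in 16.4% of member windows and 6.91% of all. The cyclic AMP response element TGACGTCA was in 5.48% and 1.55%, and ATGGCGGC, which fits the factor YY1, in 2.74% and 1.03%. For members these are 4 windows of 4 genes for the response element and 2 windows of 1 gene, Ndufa7, for YY1. The SP1 letters GGGCGG (34.2% and 32.7%) and the CCAAT box (42.5% and 33.8%) were common in both. The last 120 bases before the start are shown for 3 members with NRF1 letters and 3 with ETS letters, since these showed the largest differences in percent between members and all windows. They are the members of lowest p in the dividing cells described below among those that hold the letters within this stretch, except that Uqcrh stands for the members that were lower there. Capitals mark NRF1 and ETS letters, and a match describes the sequence and is not evidence of a bound site.
Ndufs6 (chr13:73328483-73328602, minus strand): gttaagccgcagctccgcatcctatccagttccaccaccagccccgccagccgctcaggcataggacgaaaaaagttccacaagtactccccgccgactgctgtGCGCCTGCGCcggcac
Ndufa5 (chr6:24527691-24527810, minus strand): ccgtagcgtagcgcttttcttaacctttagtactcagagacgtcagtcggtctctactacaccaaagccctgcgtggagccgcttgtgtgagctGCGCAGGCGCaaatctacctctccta
Atp5k (chr5:108434400-108434519, minus strand): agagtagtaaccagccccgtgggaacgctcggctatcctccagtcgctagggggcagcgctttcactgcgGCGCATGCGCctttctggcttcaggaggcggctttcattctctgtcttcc
Atp5j (chr16:84834977-84835096, minus strand): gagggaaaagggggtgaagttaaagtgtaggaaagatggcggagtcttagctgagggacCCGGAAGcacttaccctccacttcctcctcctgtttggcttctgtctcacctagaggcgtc
Cox6a1 (chr5:115348959-115349078, minus strand): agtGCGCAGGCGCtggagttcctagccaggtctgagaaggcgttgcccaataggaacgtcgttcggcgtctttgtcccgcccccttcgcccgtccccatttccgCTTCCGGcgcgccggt
Uqcrh (chr4:116075071-116075190, minus strand): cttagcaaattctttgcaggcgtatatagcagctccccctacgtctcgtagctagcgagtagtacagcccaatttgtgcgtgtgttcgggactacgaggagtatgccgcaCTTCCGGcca
Cox6a1 holds both kinds of letters, and 22 members hold at least one.

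The first question was how much of each cell type's RNA the OXPHOS genes took up. Summed over the 86 nuclear members, the share of UMIs was 2.01%, 2.00%, 2.12% and 1.86% in iNKT1-like cells and 2.40%, 2.48%, 2.55% and 2.20% in iNKT2-like cells. It was 2.38%, 2.36%, 2.55% and 2.22% in iNKT17-like cells, 2.92%, 2.72%, 2.69% and 2.40% in early cells and 3.12%, 3.09%, 3.06% and 2.65% in dividing cells. In every library the order ran from iNKT1-like cells at the bottom to dividing cells at the top. The 13 mitochondrial genes were ordered otherwise. They took 2.48%, 2.56%, 2.40% and 2.35% in iNKT17-like cells, the highest class in each library, and 1.53%, 1.71%, 1.54% and 1.42% in early cells, the lowest class in each library. Dividing cells, highest for the nuclear genes, were next to lowest for the mitochondrial ones in every library, at 1.64%, 1.74%, 1.61% and 1.60%. The bottom of the mitochondrial order depended on the use of sums. As means over cells the shares were 1.94%, 2.19%, 1.78% and 1.51% in early and 1.72%, 1.83%, 1.90% and 1.75% in dividing cells. Dividing cells were then lowest in both BALB/c libraries and early cells in both B6 libraries. These shares are a description and carry no test. Cells with over 10% mitochondrial UMIs had been removed.

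**Figure D1:**
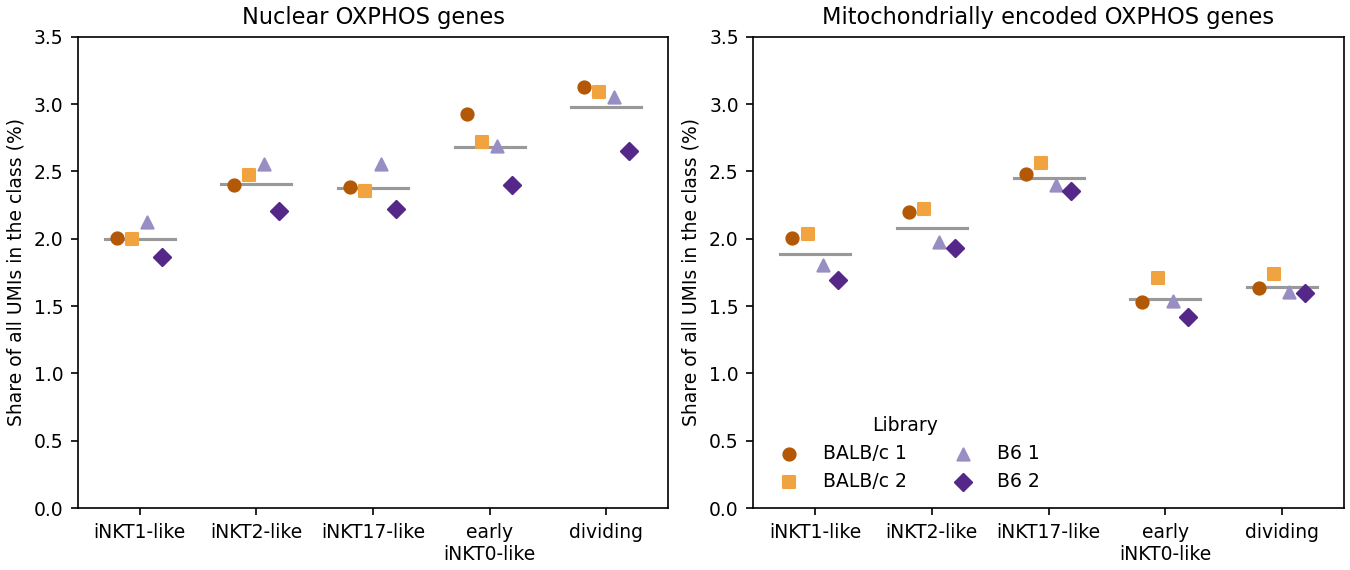
Share of all UMIs of a class (percent, vertical axis) taken by the 86 nuclear and the 13 mitochondrially encoded OXPHOS genes in each of 5 cell classes; each point is a library and each grey line the mean of 4 libraries. Dividing cells are highest for the nuclear genes (2.65% to 3.12%) and low for the mitochondrial genes (1.60% to 1.74%), where iNKT17-like cells are highest.

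In dividing cells, 72 of 79 nuclear OXPHOS genes that could be tested were higher than the mean of the 3 subsets (iNKT1-like, iNKT2-like, iNKT17-like) in the same library, while 10 of 13 mitochondrial genes were lower. The nuclear median was 0.40 on the log2 scale and the mitochondrial one -0.27, beside -0.03 over all genes. Calls here and below are at a Benjamini-Hochberg adjusted p under 0.05 in edgeR's quasi-likelihood test. At this threshold 31.0% of all 10673 genes were called higher and 30.9% lower in dividing cells. These counts include Cox6b2, a sparse gene described with the tissue-specific forms, and without it 71 of 78 nuclear genes were higher. All 4 complex II genes rose, as did 33 of 37 nuclear genes of complex I, 7 of 8 of complex III, 12 of 13 of complex IV (11 of 12 without Cox6b2) and 16 of 17 of complex V. Of the 72 that rose, 71 were higher in each of the 4 libraries. Of the 99 members, 7 had too few UMIs to be tested: Cox7a1 (158 UMIs in all), Cox6a2 (37), Cox4i2 (8), Cox8b (1), and Cox7b2, Cox8c and Ndufa4l2 (0).

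Among complex I genes, Ndufc2, an accessory subunit of the membrane arm, had 286, 291, 315 and 276 CPM in dividing cells. It had 115, 119, 145 and 122 CPM in iNKT1-like and 207, 212, 216 and 189 CPM in iNKT2-like cells. Every dividing value lay above every subset value, and the log2 difference was 0.80 ± 0.05 (SE, n = 4 libraries; edgeR adjusted p = 1.22e-10). Ndufab1, the mitochondrial acyl carrier protein that also serves complex I, rose by 0.82 ± 0.05 on the same scale (edgeR adjusted p = 4.55e-11), and the accessory subunit Ndufb6 by 0.71 ± 0.05. In complex II the iron-sulfur subunit Sdhb stood at 249, 259, 302 and 259 CPM in dividing and 170.1, 178, 202 and 192 CPM in iNKT2-like cells. It was higher in the dividing cells of every library (0.76 ± 0.05; edgeR adjusted p = 6.33e-11), and the membrane anchors Sdhd and Sdhc rose by 0.54 and 0.18. The small complex III subunits Uqcrq, Uqcr10 and Uqcr11 rose by 0.86 ± 0.07, 0.75 ± 0.05 and 0.57 ± 0.06.

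In complex IV, Cox5a, which sits on the matrix side of the enzyme, had 768, 767, 752 and 557 CPM in dividing cells. It had 538, 553, 519 and 409.6 CPM in iNKT2-like and 396, 401, 430.0 and 321 CPM in iNKT1-like cells. The library B6 2 was the lowest in each class, and the within-library difference was 0.66 ± 0.05 (log2; edgeR adjusted p = 6.52e-10). Cox6a1 rose by 0.58 ± 0.05, and Cox4i1, the regulatory subunit that binds ATP, by 0.16 ± 0.05 (edgeR adjusted p = 0.00665). In complex V, Atp5g3, which encodes the c subunit of the proton-driven rotor, had 1461, 1618, 1543 and 1350.2 CPM in dividing cells. It had 891, 979, 1018 and 889 CPM in iNKT2-like and 599, 629.6, 709 and 638 CPM in iNKT1-like cells. The classes did not overlap, and the log2 difference was 0.86 ± 0.05 (edgeR adjusted p = 1.19e-11). Atp5g1 and Atp5g2, which encode the same mature protein, rose by 0.47 ± 0.05 and 0.24 ± 0.05. The stalk subunits Atp5o and Atp5j rose by 0.75 ± 0.05 and 0.68 ± 0.04.

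Exactly 4 nuclear members fell in dividing cells, each in all 4 libraries; of these, Uqcrh, Ndufa6 and Ndufa13 are named because their values were seen. Cox7a2l, a relative of Cox7a2 that joins complexes III and IV into supercomplexes, had 165, 172, 163 and 170.3 CPM in dividing cells. It had 274, 263, 292 and 281 CPM in iNKT1-like and 278, 264, 277 and 279.5 CPM in iNKT2-like cells. Dividing cells lay below both in each library, with a log2 difference of -0.68 ± 0.06 (edgeR adjusted p = 9.85e-09). The hinge protein of complex III, Uqcrh, stood at -0.38 ± 0.05, and the complex I accessory subunits Ndufa6 and Ndufa13 at -0.35 ± 0.07 and -0.15 ± 0.04. The other 3 nuclear members of the 79 did not pass the test.

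Of the mitochondrial genes, mt-Co1, the catalytic core of complex IV, showed the largest fall in dividing cells. It stood at 2541, 2812, 2589.7 and 2299 CPM there. In iNKT1-like cells it stood at 4430.4, 4484, 4097 and 3448 CPM and in iNKT17-like cells at 4492, 4674, 4941 and 4388 CPM. No dividing value reached any of these, and the log2 difference was -0.71 ± 0.06 (edgeR adjusted p = 1.51e-09). The complex I core subunit mt-Nd5 stood at -0.63 ± 0.06, mt-Co3 at -0.48 ± 0.04 and mt-Nd4 at -0.43 ± 0.05. Smaller falls were found for mt-Atp6 (-0.31), mt-Co2 (-0.30), mt-Cytb (-0.27), mt-Atp8 (-0.27), mt-Nd4l (-0.25) and mt-Nd2 (-0.14). The exception was mt-Nd1, next to the ribosomal RNA genes on the mitochondrial map, which rose by 0.17 ± 0.05 (edgeR adjusted p = 0.00663). For mt-Nd3 (-0.11 ± 0.07) and mt-Nd6 (-0.09 ± 0.11) the difference did not pass the test.

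These are shares of each class's RNA, and dividing cells held more of it. Median UMIs per cell were 29454, 33373, 32050 and 27144 in dividing cells against 14535, 14936, 13451 and 11707 in iNKT2-like cells. Counted per cell, nuclear OXPHOS UMIs in dividing cells were 3.70-fold those of the mean subset and mitochondrial ones 2.17-fold. Both were more abundant per cell, and only the mitochondrial share was lower. Barcodes with the highest doublet scores had been removed, and the part of any remaining doublets was not tested. With cells thinned to 3000 UMIs each, 47 members in place of 73 of both genomes were called higher. Over 16 fits, the reported one and 15 with another setting or without a library, 46 to 72 nuclear genes were called higher, 2 to 4 lower, and 8 to 11 mitochondrial genes lower. The dividing cluster had iNKT2 markers as its next best class. Against iNKT2-like cells alone 55 nuclear genes were higher and 10 mitochondrial genes lower. The share of all genes called in that fit is not given here.

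**Figure D2:**
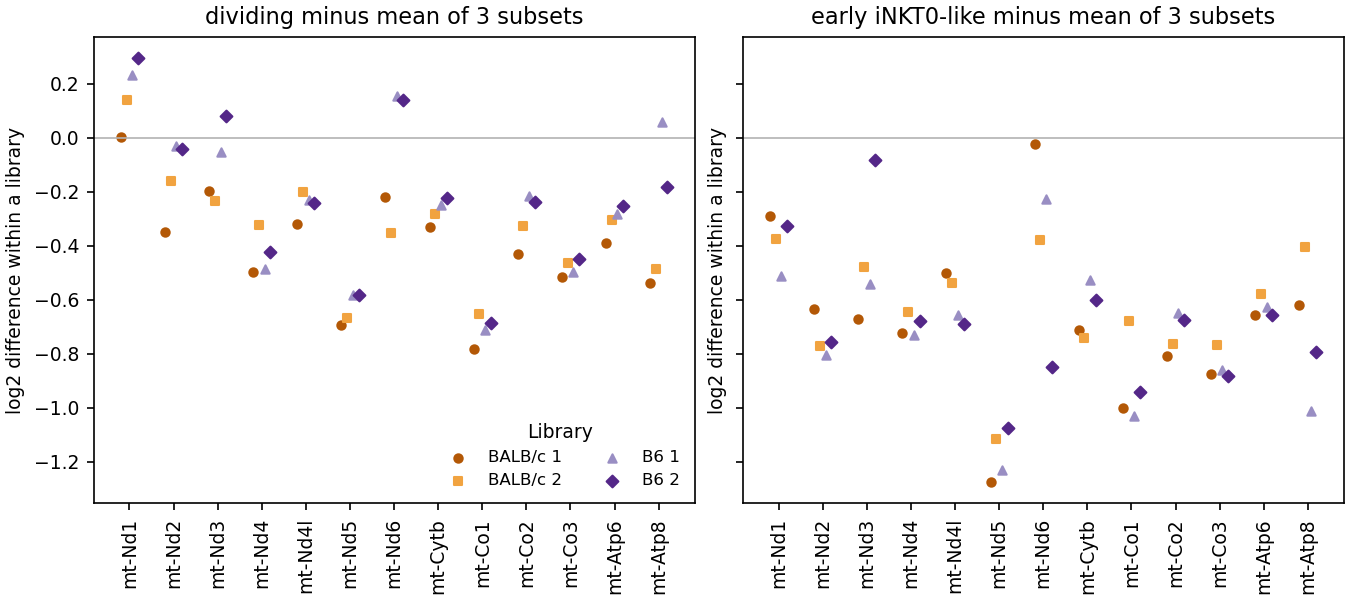
Difference in log2 CPM within each library (vertical axis) for the 13 mitochondrial genes (horizontal axis), dividing cells on the left and early iNKT0-like cells on the right, each minus the mean of the 3 subsets. In early cells every gene's fitted difference is below 0, from -1.17 for mt-Nd5 to -0.37 for mt-Nd1, whereas in dividing cells mt-Nd1 is above 0.

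Genes that work with the members were read from lists by function. Cytochrome c (Cycs), the mobile carrier between complexes III and IV, rose in dividing cells by 1.20, the ATP synthase inhibitor Atpif1 by 1.29 and cytochrome c1 (Cyc1), a complex III subunit whose symbol falls outside the naming rule, by 0.52. Of 14 TCA cycle enzymes 10 rose and 0 fell, and of 78 mitochondrial ribosomal proteins 57 rose and 2 fell. Assembly factors were mixed, with 4 higher and 2 lower of 14 for complex I and 10 higher and 7 lower of 33 for complexes II to V. Of 15 tested genes for mitochondrial transcription and its regulators, 5 rose and 2 fell. Among them, Tfam, which packages mitochondrial DNA and takes part in its transcription, rose by 0.60, and the nuclear receptor Esrra stood at -0.69. Glycolysis genes rose in 12 of 18 cases and fell in 1, with Tpi1, the triosephosphate isomerase, at 1.55. Cytosolic ribosomal protein genes were mostly lower, 54 of 80, with 8 higher.

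**Figure D3:**
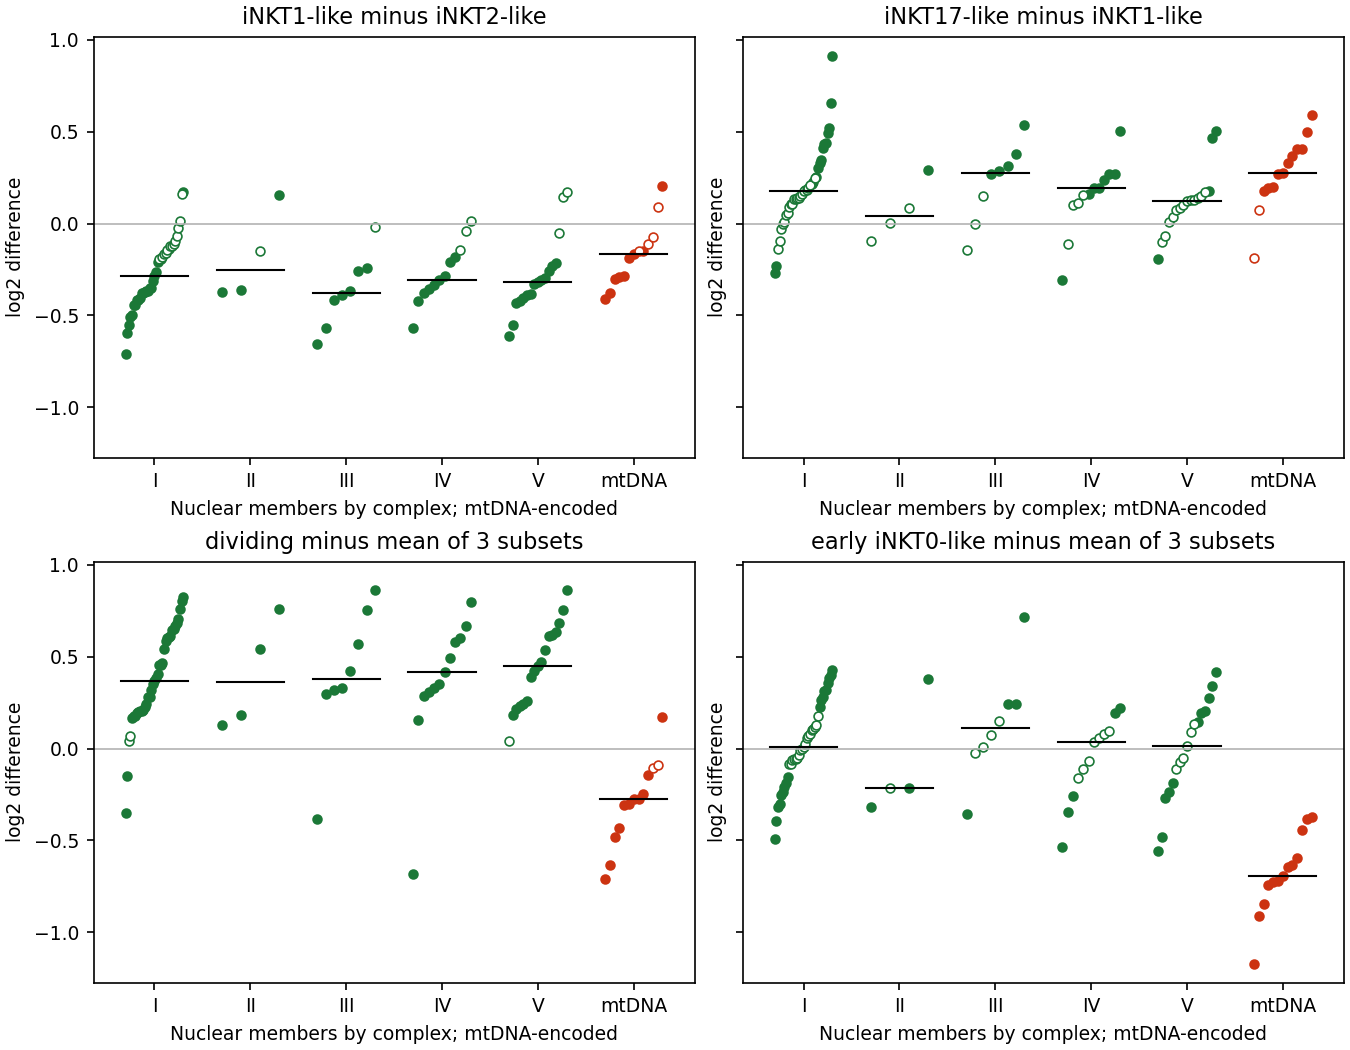
Fitted log2 difference (vertical axis) of each tested member in 4 comparisons, nuclear genes by complex and mitochondrial genes (mtDNA) together; filled points passed an adjusted p of 0.05, open points did not, and black lines are medians. Cox6b2 is included in the medians but not drawn. Most nuclear genes lie below 0 in iNKT1-like against iNKT2-like cells and above 0 in dividing cells, and all mitochondrial genes lie below 0 in early cells.

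iNKT1-like and iNKT2-like cells were compared next. In iNKT1-like cells 56 of 79 nuclear members were lower than in iNKT2-like cells of the same library and 2 were higher, with a median log2 difference of -0.31; without Cox6b2, 55 of 78 were lower. Of the 13 mitochondrial genes 8 were lower and 1 higher, with a median of -0.16. Over all genes 24.1% were called lower and 23.4% higher, and the median was -0.00255. Every one of the 67 called members had the same sign in all 4 libraries. Each complex took part: 23 of 37 nuclear complex I genes were lower, 2 of 4 in complex II, 7 of 8 in complex III, 10 of 13 in complex IV (9 of 12 without Cox6b2) and 14 of 17 in complex V. The gamma-delta markers given above were also lower in iNKT1-like than in iNKT2-like cells in every library. At a finer clustering (Leiden resolution 1.5), where 707 cells, of them 390 and 279 from the BALB/c libraries, took the gamma-delta name and left the iNKT2-like class, 61 nuclear members were lower and 1 was higher.

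Ndufc2 of complex I was lower, at -0.71 ± 0.07 (log2; edgeR adjusted p = 7.88e-08), with the CPM given above. Ndufv2, a core iron-sulfur subunit of the NADH-oxidising module, was at -0.60 ± 0.08 and Ndufb6 at -0.55 ± 0.06. In complex II, Sdhb and the anchor Sdhc were lower (-0.36 and -0.37), whereas Sdha, the flavoprotein that oxidises succinate, was higher (0.15 ± 0.06; edgeR adjusted p = 0.043). Uqcrq of complex III had 229, 221, 234 and 169 CPM in iNKT1-like and 349, 397, 346 and 258 CPM in iNKT2-like cells. B6 2 was lowest in both classes, and the class difference held in each library (-0.66 ± 0.08). Uqcr10 and the core protein Uqcrc2 stood at -0.57 and -0.39. In complex IV, Cox7a2 stood at -0.57 ± 0.10, Cox5a at -0.38 ± 0.06 and Cox4i1 at -0.31 ± 0.06. In complex V the lower genes included Atp5g3 (-0.55 ± 0.06; edgeR adjusted p = 8.60e-07), Atp5f1 of the stator (-0.43) and Atp5j (-0.42).

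Among mitochondrial genes, mt-Nd3 (-0.41 ± 0.08), mt-Cytb, the cytochrome b of complex III (-0.38 ± 0.05), mt-Nd1 (-0.30), mt-Nd4l (-0.29) and mt-Co3 (-0.19) were lower in iNKT1-like cells. mt-Nd5 went the other way. It stood at 522, 504, 404 and 364 CPM in iNKT1-like and 422, 421, 355 and 351 CPM in iNKT2-like cells, and iNKT1-like cells were higher in every library (0.20 ± 0.07; edgeR adjusted p = 0.0302). mt-Co1 and mt-Co2 did not pass (0.09 ± 0.07 and -0.11 ± 0.05). Median UMIs per cell differed as well, at 6464, 6779, 7154 and 6879 in iNKT1-like cells, less than in the iNKT2-like cells of the same library. With cells thinned to 3000 UMIs, 39 members in place of 64 were called lower, and without the library as a block 38 were.

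Around the complexes, Atpif1 was at -1.19 and Cycs at -0.58 in iNKT1-like against iNKT2-like cells. Of the TCA cycle enzymes 8 of 14 were lower and 3 higher, of mitochondrial ribosomal proteins 40 of 78 lower and 1 higher, and of glycolysis genes 12 of 18 lower and 3 higher. Assembly factors were lower in 5 of 14 cases for complex I and 11 of 33 for complexes II to V, with 1 and 3 higher. Of 15 mitochondrial transcription genes 0 were called by edgeR and 0 by DESeq2, with an unadjusted p below 0.05 for 2 and 1. Cytosolic ribosomal proteins were lower in 38 of 80 cases and higher in 4.

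iNKT17-like cells stood above iNKT1-like cells for 30 of 79 nuclear members and below them for 4, and above them for 11 of 13 mitochondrial genes. The medians were 0.15 for nuclear and 0.28 for mitochondrial genes (log2), and 19.7% of all genes were called higher and 18.7% lower. The count depended on the processing: over 15 fits 11 to 60 nuclear and 3 to 11 mitochondrial genes were called higher. Of both genomes 21 members in place of 41 were higher with thinned cells, 15 without the library as a block and 22 when cells were clustered within each library, a setting chosen after seeing the data. The gamma-delta markers were also higher in iNKT17-like than in iNKT1-like cells in every library, and their part in this comparison was not tested. A clear change was found for Ndufs5, a complex I accessory subunit on the intermembrane side. It had 220.2, 204, 261 and 199.6 CPM in iNKT17-like cells. It had 119.6, 113, 127 and 106 CPM in iNKT1-like and 151, 167, 160.3 and 142 CPM in iNKT2-like cells. All iNKT17-like values exceeded all those of the other 2 subsets. Dividing cells lay outside this comparison, and their Ndufs5 was 0.39 ± 0.06 (log2) above the mean of the 3 subsets. The log2 differences of iNKT17-like cells were 0.91 ± 0.07 from iNKT1-like (edgeR adjusted p = 6.13e-09) and 0.50 ± 0.07 from iNKT2-like cells (edgeR adjusted p = 2.03e-05). Ndufv3, an accessory subunit of the NADH-oxidising module, was also higher than in both, by 0.66 ± 0.06 and 0.29 ± 0.06. They were the 2 nuclear members called higher than in iNKT2-like cells.

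Against iNKT1-like cells, Ndufs4 of complex I rose by 0.49, Sdhc by 0.29, Uqcr10, Uqcrq and Uqcr11 by 0.54, 0.38 and 0.31, Cox7c and Cox6c by 0.50 and 0.27, and Atp5g3 and Atp5md by 0.50 and 0.46. Cox8a, a small membrane subunit of complex IV, was lower in iNKT17-like cells than in both other subsets (-0.31 ± 0.07 and -0.35 ± 0.07). The mitochondrial genes mt-Nd6 (0.59 ± 0.13), mt-Nd3 (0.50 ± 0.09), mt-Cytb (0.41), mt-Nd4l (0.40) and mt-Co3 (0.33) were higher than in iNKT1-like cells, and mt-Nd5 (-0.19 ± 0.08) did not pass. Against iNKT2-like cells 20 nuclear members were lower, 2 nuclear and 2 mitochondrial genes were higher, and 0 mitochondrial genes were lower, where 14.1% of all genes were called higher and 14.8% lower. Those lower included Ndufb5 (-0.36), Sdhb (-0.36), Uqcrc2 (-0.39), Uqcrq (-0.28), Cox7a2 (-0.30) and 9 of 17 complex V genes, with Atp5e, the epsilon subunit of the stalk, at -0.36, Atp5j at -0.35 and Atp5f1 at -0.30. The mitochondrial genes called higher were mt-Co1 (0.26 ± 0.07) and mt-Co3 (0.15 ± 0.05).

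Without scaling factors the median of all genes moved by 0.12 and 0.11 (log2) in these comparisons, 71 members in place of 41 were called higher than in iNKT1-like cells, and 20 in place of 4 higher and 10 in place of 20 lower than in iNKT2-like cells. All values and list counts for iNKT17-like cells are relative to the scaled median. In iNKT17-like cells 44 of 80 cytosolic ribosomal proteins were lower and 7 higher than in iNKT1-like cells, and 77 lower and 0 higher than in iNKT2-like cells. Cox10, an assembly factor of complex IV, was higher than in iNKT1-like cells by 1.43 and Atpif1 by 1.34. Myc, a growth regulator, stood at -1.73 against iNKT1-like and -1.78 against iNKT2-like cells. Mitochondrial ribosomal proteins were higher than in iNKT1-like cells in 23 of 78 cases and lower in 6, and against iNKT2-like cells higher in 4 and lower in 13, a direction that turned without scaling factors (9 higher and 4 lower). TCA cycle enzymes numbered 3 higher and 1 lower against iNKT1-like cells, and 1 higher and 4 lower of 14 against iNKT2-like cells; glycolysis genes numbered 8 higher and 5 lower, and 2 higher and 9 lower, of 18.

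In early iNKT0-like cells all 13 mitochondrial genes were lower than in the mean of the 3 subsets, with a median log2 difference of -0.70, and each was lower in all 4 libraries. Of all genes 23.0% were called higher and 23.8% lower. Nuclear members had no common direction, with 22 higher and 20 lower of 79 (21 and 20 of 78 without Cox6b2) and a median of 0.01. mt-Nd5 had 182, 199, 162 and 176 CPM in early cells. The subsets ranged above that in every library, from the values given above to 391, 381, 385 and 402 CPM in iNKT17-like cells. The groups did not overlap, and the difference was -1.17 ± 0.07 (log2; edgeR adjusted p = 1.94e-10). mt-Co1 had 2182, 2762, 2076 and 1926 CPM and a difference of -0.91 ± 0.06 (edgeR adjusted p = 2.05e-10). The other complex IV genes mt-Co3 and mt-Co2 were at -0.85 and -0.73, the ATP synthase genes mt-Atp8 and mt-Atp6 at -0.72 and -0.63, and mt-Cytb at -0.65. Of the remaining complex I genes, mt-Nd2 (-0.74) and mt-Nd4 (-0.70) fell more than mt-Nd4l (-0.60), mt-Nd3 (-0.44), mt-Nd6 (-0.39 ± 0.15; edgeR adjusted p = 0.0406) and mt-Nd1 (-0.37).

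Nuclear members moved both ways within each complex. In complex III, Uqcrq had 524, 386, 495 and 373 CPM in early cells, above every iNKT1-like value and above the iNKT2-like value of the same library except in BALB/c 2 (386 against 397). Against the mean of the 3 subsets it rose by 0.72 ± 0.07 (edgeR adjusted p = 7.82e-08), and Uqcrc2 by 0.24, while Uqcrh stood at -0.36. In complex I, Ndufc2 and Ndufb6 rose by 0.43 and 0.40 and Ndufa6 stood at -0.49. In complex II, Sdhb rose by 0.38 and Sdhd and Sdha stood at -0.32 and -0.21. In complex IV, Cox7a2l (-0.53) and Cox8a (-0.34) were lower. In complex V, Atp5g2 (-0.56 ± 0.05) and Atp5l (-0.48) were lower and Atp5o rose by 0.34.

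The nuclear split was not stable, whereas the mitochondrial fall was. Over the same 16 kinds of fit, all 13 mitochondrial genes lay below 0 in each, with medians from -0.74 to -0.39 and 10 to 13 genes called. Nuclear calls ranged from 2 to 57 higher and from 4 to 57 lower. Without scaling factors the median of all genes moved by 0.26 (log2) and 57 members of both genomes were called higher and 14 lower; Sdha then changed sign. The summed nuclear share given for early cells is likewise unscaled. Without the filter on mitochondrial UMIs 2 members were higher and 70 lower, and Ndufc2, Sdhb, Uqcrq, Uqcrc2 and Atp5o changed sign. In the same cells 77 of 80 cytosolic ribosomal proteins were lower and 0 higher, with a median of -0.72. Cells named double-positive thymocytes (0, 0, 111 and 218) lay outside these comparisons, as did unnamed clusters 6 and 11, which scored highest for the same markers. In early cells the summed markers of double-positive thymocytes were at 307 to 1075 CPM, with 1 of 10 at 0 in every library and Rag1 at 1.27 to 3.75 CPM. In the other classes compared here they were at most 107 CPM. Their part in these results, and that of the low depth of early cells (median 3900 to 4668 UMIs), was not tested, though with cells thinned to 3000 UMIs 12 of 13 mitochondrial genes were still called lower.

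Of the surrounding pathways in early cells, Atpif1 rose, as did Cycs by 0.65 and the mitochondrial DNA polymerase Polg by 1.39. Glycolysis genes were higher in 9 of 18 cases and lower in 3, mitochondrial ribosomal proteins higher in 18 of 78 and lower in 9, and TCA cycle enzymes higher in 4 of 14 and lower in 2. Of assembly factors 2 were higher and 2 lower of 14 for complex I, and 0 higher and 8 lower of 33 for complexes II to V. Without scaling factors the last list turned to 11 higher and 1 lower, and mitochondrial ribosomal proteins stood at 47 higher and 0 lower.

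Several complex IV and V subunits exist as tissue-specific forms. In every class the ubiquitous forms carried nearly all counts. Cox4i1 had 15564 to 55042 UMIs per library over all cells and its partner Cox4i2 0 to 4; Cox6a1 had 7081 to 24495 and the muscle form Cox6a2 0 to 23. Cox6b2, a form known from testis, had 84, 73, 23 and 81 UMIs, against 9512, 9494, 8720 and 29033 for Cox6b1. By class Cox6b2 had 18, 13, 4 and 11 UMIs in dividing cells, 41, 34, 2 and 20 in iNKT2-like cells and 2, 0, 1 and 8 in iNKT1-like cells. Its log2 differences were -2.70 ± 0.57 in iNKT1-like against iNKT2-like cells, 1.98 ± 0.42 in dividing and 2.15 ± 0.57 in early cells against the 3 subsets. It was called in all 3 comparisons (edgeR adjusted p = 0.000637, 0.000447 and 0.00412), but a gene this sparse passes the low-count filter only through the groups where it is high, which is why the counts of members are also given without it. Cox7a1, the heart and muscle form of Cox7a2, had 63, 52, 16 and 27 UMIs.

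Strains were compared last, as BALB/c relative to B6, within each class and over all kept cells. Few members passed. Over all cells, 2 of 93 tested were called, where 7.28% of all 12878 genes were; without the sparse Cox6b2 and Cox7a1 it was 1 of 91. Within classes the count was 0 of 91 in iNKT1-like cells (4.41% of all genes), 4 of 93 in iNKT2-like (10.2%; 2 of 91 without those genes), 1 of 91 in iNKT17-like (4.77%), 1 of 91 in early (1.10%) and 0 of 92 in dividing cells (3.63%). In the classes with 0 calls by edgeR, 7 and 17 members had an unadjusted p under 0.05, and DESeq2 called 0 and 3. The shares of all genes that did so are not given here. The median log2 difference of the members was 0.02 in iNKT1-like, 0.09 in iNKT2-like, -0.02 in iNKT17-like, 0.18 in early and 0.17 in dividing cells, beside -0.02, -0.02, -0.01, -0.01 and -0.02 over all genes.

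The member that recurred across classes was mt-Nd3, a small complex I core subunit (mitochondrial genome, bases 9459 to 9806, plus strand). In iNKT2-like cells it had 267, 278, 132 and 66.6 CPM, and in iNKT17-like cells 257, 289.9, 150.4 and 75.9 CPM. In early cells it had 148, 186, 88.9 and 58.5 CPM. Both BALB/c libraries were above both B6 libraries in each class, and B6 2 was lower than B6 1. The part of the other software version of B6 2 in its mt-Nd3 count was not tested. All classes come from the same libraries, so the recurrence is not a replication. It was called in iNKT2-like (1.48 ± 0.31, log2, n = 2 libraries per strain; edgeR adjusted p = 0.0426), iNKT17-like (1.34 ± 0.26; edgeR adjusted p = 0.0185) and early cells (1.23 ± 0.24; edgeR adjusted p = 0.0475). In iNKT1-like cells, with 191, 217, 110.0 and 47.0 CPM, it did not pass (1.38 ± 0.36; edgeR adjusted p = 0.1), nor in dividing cells, with 206, 220.3, 125 and 65.5 CPM (1.24 ± 0.26; edgeR adjusted p = 0.0549).

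**Figure D4:**
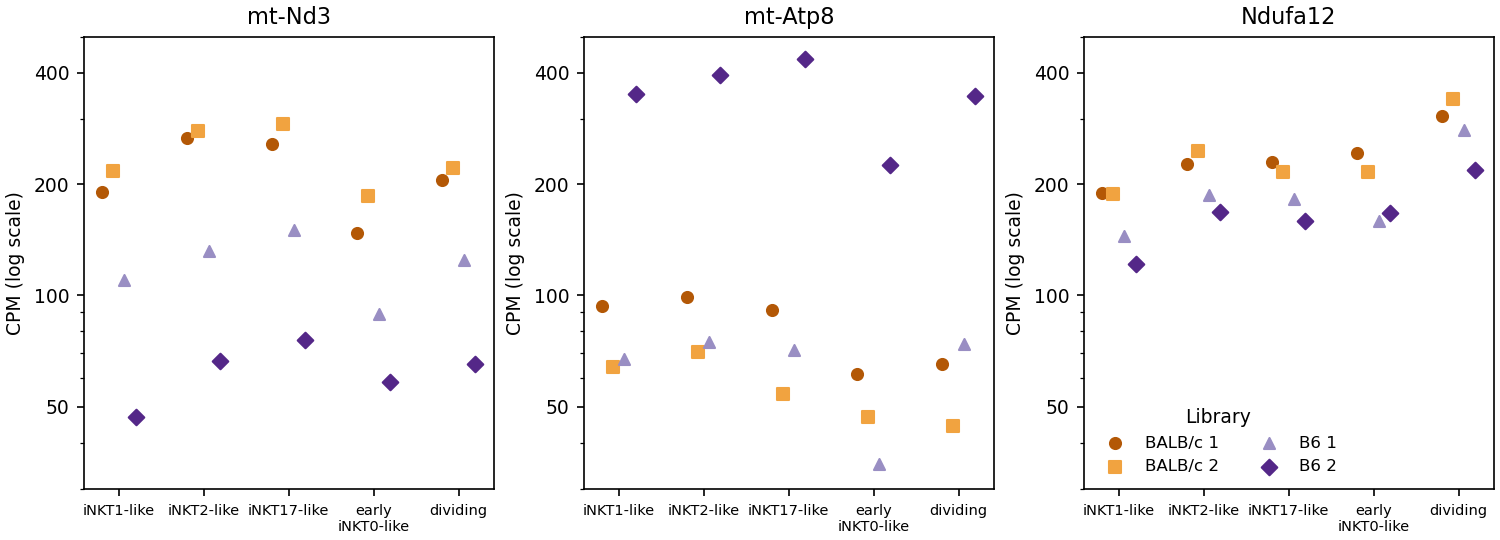
CPM (vertical axis, log scale) of mt-Nd3, mt-Atp8 and Ndufa12 in each of 5 classes, with a point per library. Both BALB/c libraries lie above both B6 libraries for mt-Nd3 and Ndufa12 in every class, and for mt-Atp8 the library B6 2 alone is high, at 226 to 437 CPM, while the other 3 lie between 34.9 and 99.1.

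Ndufa12, a complex I accessory subunit, had 225, 231, 163 and 142 CPM over all cells. BALB/c was higher without overlap (0.58 ± 0.10; edgeR adjusted p = 0.0449). The class mix differed between strains, but the direction was the same within iNKT1-like (0.49 ± 0.12; edgeR adjusted p = 0.0872) and iNKT2-like cells (0.40 ± 0.10; edgeR adjusted p = 0.0715), where it did not pass. Ndufa4, a subunit now placed in complex IV, had 836, 889.7, 607 and 520.1 CPM in iNKT2-like cells and was higher in BALB/c (0.60 ± 0.11; edgeR adjusted p = 0.0348). In dividing cells its difference was 0.57 ± 0.14 (edgeR adjusted p = 0.0763). Cox6b2 was called over all cells and in iNKT2-like cells (1.68 and 1.92), and Cox7a1 in iNKT2-like cells (2.40) from 32, 25, 3 and 8 UMIs, both with the limit of sparse genes given above.

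mt-Atp8, the short ATP synthase gene that overlaps mt-Atp6 (bases 7766 to 7969 and 7927 to 8607), was chosen after its values were seen. In iNKT2-like cells it had 99.1, 70.3, 74.7 and 393 CPM. B6 1 lay with the BALB/c libraries and B6 2 stood apart, in every class. The fitted differences of -1.52 ± 0.70 in iNKT2-like and -1.86 ± 0.57 in iNKT17-like cells did not pass (edgeR adjusted p = 0.241 and 0.112), and without B6 2 they were 0.16 and 0.05. B6 2 is also the library with the other software version, and the part of this in its mt-Atp8 count was not tested. How reads in overlapping genes, here also mt-Nd4l and mt-Nd4, were divided could not be read from the files.

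One library limits the strain comparison. Leaving out B6 1 raised the number of members called over all cells and in every class. BALB/c is then set against B6 2 alone, which is assumed to vary like the BALB/c libraries. How many of all genes were called in that fit is not given here, so the rise cannot be read as particular to the members. In addition, the classes of the strains came from different clusters. Most BALB/c iNKT1-like cells lay in cluster 4 and most B6 ones in 7, 8, 16 and 18. iNKT2-like cells lay mostly in cluster 3 in BALB/c and in 2 and 9 in B6. The B6 libraries also differed from each other. Of iNKT1-like cells, cluster 7 held 1098 of B6 1 and 314 of B6 2, and cluster 16 held 32 and 2189. Clusters 8 (207 and 1036) and 18 (9 and 1120) were likewise mostly B6 2. The iNKT2-like cells in clusters 2, 3 and 9 numbered 54, 75 and 78 in B6 1 and 649, 39 and 791 in B6 2.

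A direct test asked whether the strain difference itself differed between iNKT1-like and iNKT2-like cells. It was called for 10 of 93 members (10.9% of all 12016 genes), in each case with BALB/c relative to B6 lower in iNKT1-like than in iNKT2-like cells; 4.43% of all genes were called in that direction. Ndufa4 showed the largest. It had 555, 583, 573 and 474 CPM in iNKT1-like cells, where the strains overlapped, unlike in iNKT2-like cells, and its difference of differences was -0.48 ± 0.06 (log2; edgeR adjusted p = 1.34e-06). Cox7a2 followed with -0.36 ± 0.07 (edgeR adjusted p = 0.000438). The others were Ndufa10, Ndufa8 and Ndufb10 of complex I, Uqcrb and Uqcrh of complex III, Cox7c of complex IV and Atp5md and Atp5j of complex V. Without single libraries 2 to 6 members were called (6, 4, 6 and 2, in the order of libraries used above), and DESeq2 called 2. In the same fit 49 of 81 cytosolic ribosomal proteins were called lower and 0 higher. Markers of other classes differed between the strains in the iNKT2-like class. Its 13 iNKT1 markers summed to 1157, 1127, 2052 and 2369 CPM by library, with Tbx21 at 7.78, 5.77, 39.0 and 62.4 CPM, so that both B6 libraries were higher, and the gamma-delta markers were higher in BALB/c. Cluster 2, with 54 and 649 of the B6 iNKT2-like cells and 1 and 0 of the BALB/c ones, was named at a score of 0.34, near the minimum of 0.3. The interaction counted 10 members at the resolution of 1.5, 2 when cells were clustered within each library and 29 (1 higher and 28 lower) with classes by highest marker score; the part of these markers in it was not tested.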

How the data were processed

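Per the labels' protocols, live thymic cells were sorted on a FACSAria III and libraries were made with a Chromium Next GEM 5' kit v2. The matrices deposited by the authors, 1 per library, hold raw UMI counts, which are whole numbers. The genome build was mm10 and the counting tool Cell Ranger 7.1.0, per the submitters' processing notes; per the file headers, version 7.1.0 made only B6 2 and version 6.0.0 the other 3 libraries. The treatment of intronic reads, and of reads shared with near-identical gene copies, is not stated in the labels or headers.

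Kept cells had at least 500 genes and 1000 UMIs and at most 10% of UMIs from mitochondrial genes. Removed as well were barcodes of highest Scrublet score (0.8% per 1000 barcodes; 33, 34, 50 and 758 marked, a fixed rate and not a measured one). Cells of the 4 libraries were clustered together with scanpy 1.11.5 (2000 variable genes, 30 principal components, 15 neighbours, Leiden resolution 1.0). A cluster took the name of the marker list with the highest mean log2 fold over other clusters, if that was at least 0.3 and at least 40% of the markers, and no fewer than 3, exceeded 0.5. Names rebuilt in this way may differ from the study's.

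Counts were summed per library and class and tested with edgeR 4.0.16 in R 4.3.3 (TMM, filterByExpr, glmQLFit, glmQLFTest), since cells are not replicates. Class comparisons had the library as a block; strain comparisons had no block. p-values were adjusted by Benjamini-Hochberg over all genes tested. SE was derived from the fit as the size of the log2 difference over the root of its F value. CPM values are TMM-scaled, except for markers and for shares of UMIs. The fitting code was tested on simulated data with known changes.

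The members and lists were chosen with earlier results of these data known. Genes named per class comparison were the 3 nuclear members of lowest p of each complex, the mitochondrial genes and the isoform sets; for strains, the members called or the 5 of lowest p; and up to 3 of lowest p of each pathway list. Not all of them are printed. Same-numbered libraries of the strains did not deviate together (correlation -0.26 over all cells and -0.05 to 0.02 within classes), and the labels give numbers only, so they were not treated as pairs. Alternatives were DESeq2 1.42.0, RLE or no scaling, no low-count filter, another block, other clusterings, another naming rule, no mitochondrial filter, cells thinned to 3000 UMIs and each library left out.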

Additional observations from a re-analysis of the deposited data

Results flagged for a closer look

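The summed mitochondrial share of iNKT1-like against iNKT2-like cells stood apart in 1 library: the log2 difference was -0.189 in B6 2 and -0.134, -0.126 and -0.130 in BALB/c 1, BALB/c 2 and B6 1. It was 1 of 10 such groups of 4 libraries examined, and chance sets about 1 in 20 apart. The direction was the same in all 4 libraries.

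For 10 nuclear members the strain difference (BALB/c relative to B6) in iNKT1-like cells differed from that in iNKT2-like cells by the test of the difference itself. The log2 values were -0.48 for Ndufa4, -0.36 for Cox7a2, -0.30 for Ndufa10, -0.29 for Atp5md, -0.27 for Ndufa8, -0.25 for Ndufb10, -0.24 for Uqcrb, -0.21 for both Atp5j and Cox7c, and -0.18 for Uqcrh. No mitochondrial gene was called in this test (0 of 13). Of the 93 members tested 10.75% were called, beside 10.9% of all 12016 genes. Each of the 10 was lower, a direction called for 4.43% of all genes. The count changed between settings, as given above and below.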

How the results depend on the processing

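Counts of members called are given here in the order of the reported value and then the alternative, over both genomes. Without scaling factors, members called higher went from 41 to 71 (iNKT17-like against iNKT1-like), 4 to 20 (iNKT17-like against iNKT2-like), 22 to 57 (early) and 3 to 5 (iNKT1-like against iNKT2-like), and members called lower from 4 to 1, 20 to 10 and 33 to 14 in the first 3 of these; strain calls in dividing cells went from 0 to 2 and the interaction from 10 to 4. With cells thinned to 3000 UMIs, dividing cells had 47 higher in place of 73, iNKT1-like against iNKT2-like 39 lower in place of 64, iNKT17-like against iNKT1-like 21 higher and 1 lower, and iNKT17-like against iNKT2-like 6 lower; strain calls were 1 over all cells and 4 in dividing cells, and the interaction 6. With DESeq2, 6 were higher in iNKT1-like against iNKT2-like and 7 in iNKT17-like against iNKT2-like cells, strain calls were 9 over all cells and 3 in dividing cells, and the interaction 2. Without the low-count filter, 1 was higher in iNKT1-like against iNKT2-like cells, and strain calls were 3, 18, 3, 6 and 3 in iNKT1-like, iNKT2-like, iNKT17-like, early and dividing cells; RLE scaling gave 0 in early cells. At a Leiden resolution of 1.5, 1 was higher in iNKT1-like against iNKT2-like cells. Naming each class by its highest marker score gave 3 higher and 62 lower in early cells, 2 lower in iNKT17-like against iNKT1-like cells, 0 strain calls in early cells and 29 for the interaction. Without the mitochondrial filter, early cells had 2 higher and 70 lower, iNKT1-like against iNKT2-like 0 higher, and early cells 0 strain calls. Clustering within each library, chosen after seeing the data, gave 1 higher in iNKT1-like against iNKT2-like, 22 higher and 1 lower in iNKT17-like against iNKT1-like, 2 higher and 12 lower in iNKT17-like against iNKT2-like, and 5 higher in early cells; strain calls were 2, 2 and 0 in iNKT2-like, iNKT17-like and early cells, and the interaction 2. Against iNKT2-like cells alone, also added later, early cells had 6 higher. The cause of these changes was not tested.

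Without the library as a block (no replicate block), iNKT1-like against iNKT2-like had 0 higher and 38 lower, iNKT17-like against iNKT1-like 15 and 1, iNKT17-like against iNKT2-like 1 and 9, early cells 21 lower, and the interaction 0. With the replicate number as a block in the strain fits, 0, 1, 2, 2, 3 and 1 members were called over all, iNKT1-like, iNKT2-like, iNKT17-like, early and dividing cells; with crossed numbers, 0, 2, 2, 2 and 3 in the same order without iNKT2-like cells.

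Leaving out 1 library gave 1 to 2 higher in iNKT1-like against iNKT2-like, 2 to 4 lower in iNKT17-like against iNKT1-like and 12 to 16 lower in iNKT17-like against iNKT2-like cells. Strain calls ranged from 0 to 70 over all cells, 0 to 45 in iNKT1-like, 0 to 60 in iNKT2-like, 2 to 28 in iNKT17-like, 0 to 26 in early and 0 to 41 in dividing cells, each highest without B6 1, and the interaction from 2 to 6.

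As means over cells in place of sums, the log2 share difference was -0.30 in place of -0.37 (mitochondrial, dividing), -0.27 in place of -0.46 (mitochondrial, early), -0.21 in place of -0.27 (nuclear, iNKT1-like against iNKT2-like) and 0.22 in place of 0.25 (nuclear, iNKT17-like against iNKT1-like). Signs changed for mt-Nd6 in dividing cells without the mitochondrial filter (0.0183). In early cells they changed without that filter for Ndufc2 (-0.31), Uqcrc2 (-0.13), Uqcrq (-0.12), Atp5o (-0.0441) and Sdhb (-0.0276), by marker score for Ndufc2 (-0.0381), Atp5o (-0.0364), Sdhb (-0.0264) and Uqcrc2 (-0.0243), without scaling factors for Sdha (0.0628), and against iNKT2-like cells alone for Uqcrc2 (-0.0196). The strain difference of mt-Atp8 changed sign without B6 2: leaving out 1 library gave -2.20 to 0.16 in iNKT2-like and -2.53 to 0.0522 in iNKT17-like cells. Of the named differences reported as called, 1623 values under alternatives stayed called with the same sign, 263 kept the sign only and 11 changed it.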
